A study of Mus musculus with 21 samples.

Results

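The citric acid cycle was followed through 9 genes that encode its enzymes or their subunits, namely Cs, Idh3a, Idh3b, Idh3g, Ogdh, Suclg1, Suclg2, Fh1 and Mdh2. They were chosen by name: every non-control spot whose gene name in the array files was one of these symbols was taken, which gave 12 of 55681 probes, 3 for Ogdh, 2 for Fh1 and 1 for each other gene. All 12 probes passed the filter on dim probes, and the 9 genes are among 19718 genes tested. Livers came from adult male C57BL/6J mice, an inbred strain, that ate a normal-fat diet for 3 weeks and then a high-fat diet for 12 weeks, either alone (HF, 11 livers) or with the plant flavonoid quercetin at 0.33% of diet weight (HF-Q, 10 livers). Food was withheld for 2 to 4 hours before the livers were collected. The RNA of each liver was labelled with Cy5 and hybridised on a 2-colour Agilent array against a Cy3-labelled equimolar pool of all livers, so a value is a log2 ratio of that liver to the pool. Every group ate high fat, so no value compares high fat with normal fat.

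The citric acid cycle runs in the mitochondrial matrix, where it oxidises the acetyl group of acetyl-CoA to carbon dioxide and passes the electrons to NADH and ubiquinol for the respiratory chain. In liver it is fed by fatty acid breakdown as well as by pyruvate, and its intermediates leave it for glucose, fatty acid and amino acid synthesis. Its enzymes are encoded in the nucleus and imported, and their activity is also set by substrates, calcium and energy charge, none of which an array reads.

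An array reads each gene through a probe of 60 bases. Those of Idh3b and Suclg1 are shown because they belong to pairs of members that correlated above 0.5 over the livers, described further on, and that of Fh1 because its ends lie 2431 bases apart in the genome, so that it is split by an intron. Each of these 3 probes has 1 of its 3 forward reading frames free of stop codons. All sequences are from the array files, 5′ to 3′, with no part singled out by capitals.
Idh3b probe: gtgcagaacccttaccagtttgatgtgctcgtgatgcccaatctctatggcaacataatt
Suclg1 probe: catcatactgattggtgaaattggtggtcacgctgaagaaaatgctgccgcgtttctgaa
Fh1 probe: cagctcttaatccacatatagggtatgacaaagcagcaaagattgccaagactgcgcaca
On mouse build NCBI37 (mm9), as the array files give it, the Idh3b probe lies at chr2:130106776-130106835, the Suclg1 probe at chr6:73221044-73221103 and the Fh1 probe at chr1:177531659-177534089. The probes that stood for the other genes lie at chr10:127799428-127799487 (Cs), chr9:54451368-54451427 (Idh3a), chrX:71024358-71024417 (Idh3g), chr11:6256511-6256570 (Ogdh), chr6:95424712-95424771 (Suclg2) and chr5:136266157-136266216 (Mdh2). Where a probe falls among the exons and untranslated regions was not analysed here.

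All 12 probes were well above background on all 21 arrays, and none was saturated or marked uneven on any. Their Cy5 intensity, in scanner units before normalization, was read against local backgrounds with a median of 32 to 39. That of Cs ran from 17865 to 27988, that of Idh3a from 2198 to 3963 and that of Mdh2 from 61496 to 90326. Levels are not compared between genes, since probes differ in how strongly they bind.

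The share of probes well above background was 44.2% to 51.3% per array. The 3 slides held 3, 4 and 4 HF livers and 4, 2 and 4 HF-Q livers. All 10 hepatocyte markers examined, among them Alb and Ttr, were well above background on every array. Their median log2 difference between diets was -0.023, and 1 of the 10 had an unadjusted limma p under 0.05 (5.93% of all tested genes did). Acinar markers of the pancreas, 8 of 9 of them on the array, stood apart in 2 HF livers: their summed net Cy5 intensity was 22320 in HF replicate 11 and 13120 in HF replicate 5, and at most 1654 in the other 19 livers. The 4 acinar markers tested had a median log2 difference of -0.42 and the 2 red cell markers tested one of -0.15, lower in HF-Q. Of these, 0 and 1 had an unadjusted limma p under 0.05, beside the same 5.93% of all tested genes. No tested marker of 10 cell type lists passed the test between diets, and all 4 muscle markers were too dim to be tested. The mean log2 ratio of a list correlated with the mean of the 9 members over the 21 livers at r = 0.46 for red cell markers, 0.45 for cholangiocyte, 0.30 for acinar and 0.19 for hepatocyte markers, and their part in the results was not tested. In bulk liver, fewer cells of a type and less RNA per cell cannot be told apart.

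Setting HF-Q against HF shows whether quercetin in a high-fat diet went with altered levels of these transcripts in liver. Of the 9 genes 0 were called in limma at a Benjamini-Hochberg adjusted p below 0.05, the adjustment covering all 19718 genes (background 0% of all tested genes called). At an unadjusted p under 0.05 stood 0 of 9 (background 5.93%, with 3.02% higher and 2.91% lower in HF-Q). Log2 differences, HF-Q minus HF, ran from -0.073 for Suclg2 to 0.033 for Fh1, and HF and HF-Q livers overlapped for every gene (0 of 9 apart, background 0.00507%). The 95% intervals of the 9 differences all lay between -0.18 and 0.14 on the log2 scale, so that the lowest bound, that of Cs, is a level in HF-Q of 0.881 times that in HF and the highest, that of Idh3a, one of 1.10 times. The number of arrays limits this precision.

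**Figure D1:**
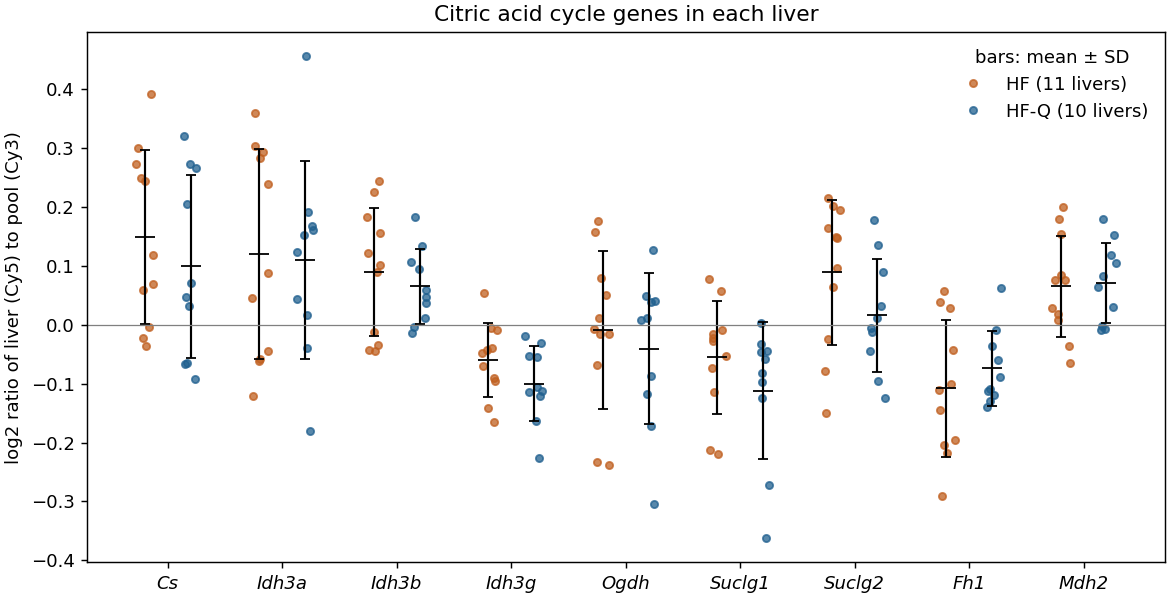
Log2 ratio of each liver to the pool (vertical axis) for the 9 genes, with 11 HF livers in orange, 10 HF-Q livers in blue and black bars at the mean ± SD. The groups overlap for every gene, and the widest scatter is that of Idh3a, whose livers span -0.18 to 0.46.

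Citrate synthase, encoded by Cs, joins acetyl-CoA to oxaloacetate and so opens the cycle. Its log2 ratio to the pool had a lowest value of -0.035, a median of 0.12 and a highest value of 0.39 in HF livers, and of -0.092, 0.059 and 0.32 in HF-Q livers. The whole HF-Q range except its low end lay inside the HF range. No dyes were swapped, so a gene's dye bias is in every ratio. Livers are therefore compared with each other and not with the pool. The means were 0.15 ± 0.15 (SD, n = 11) and 0.099 ± 0.155 (n = 10), and the difference was -0.050 ± 0.064 (SE; limma adjusted p = 0.989).

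Isocitrate dehydrogenase of the NAD-linked type is built from the catalytic subunit encoded by Idh3a and the subunits of Idh3b and Idh3g, which take part in its regulation. Idh3a ran from -0.12 through a median of 0.088 to 0.36 in HF and from -0.18 through 0.14 to 0.46 in HF-Q, so the lowest and the highest liver were both HF-Q livers. Its difference was -0.011 ± 0.072 (SE; limma adjusted p = 0.999). Idh3b ran from -0.044 through 0.10 to 0.24 in HF and from -0.014 through 0.053 to 0.18 in HF-Q, the narrower HF-Q range lying inside that of HF. The difference of Idh3b was -0.024 ± 0.042 (limma adjusted p = 0.999).

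Idh3g ran from -0.16 through -0.048 to 0.054 in HF and from -0.23 through -0.11 to -0.019 in HF-Q. All 10 HF-Q livers had a negative log2 ratio, as did most HF livers, which with dye bias in every ratio is not read as a level below the pool. The difference was -0.041 ± 0.033 (SE; limma adjusted p = 0.971). The residual SD of Idh3g, 0.063, was among the smallest of the array, at percentile 3.04 of all tested genes, whereas that of Idh3a, 0.17, was at percentile 80.9. The median gene had 0.13.

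Oxoglutarate dehydrogenase, whose first component is encoded by Ogdh, makes succinyl-CoA. Its brightest probe ran from -0.24 through -0.0064 to 0.18 in HF and from -0.30 through 0.0099 to 0.13 in HF-Q. A single HF-Q liver, replicate 10, was the lowest of all, and the difference was -0.032 ± 0.056 (SE; limma adjusted p = 0.999). The other Ogdh probes, at chr11:6256583-6256642 and chr11:6258910-6258969, had differences of -0.041 ± 0.059 and -0.046 ± 0.043 in the fit over all 26291 kept probes, where 0 of the 12 member probes had an unadjusted p under 0.05 (background 5.65%). The first of them tracked the brightest probe over the 21 livers at r = 0.89, and the second, further along the transcript, at r = 0.29. The 3 probes therefore gave close differences between diets but not the same order of livers.

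Succinyl-CoA ligase turns succinyl-CoA into succinate and captures the energy as a nucleoside triphosphate. Suclg1 encodes its alpha subunit and Suclg2 the beta subunit of the GDP-dependent form. Suclg1 ran from -0.22 through -0.027 to 0.078 in HF and from -0.36 through -0.070 to 0.0022 in HF-Q, the lowest livers being HF-Q replicates 3 and 6, at -0.36 and -0.27. Its difference was -0.056 ± 0.047 (SE; limma adjusted p = 0.976). Suclg2 ran from -0.15 through 0.15 to 0.22 in HF and from -0.12 through 0.0027 to 0.18 in HF-Q, so that the HF median lay near the top of the HF-Q range while the low ends met. Its difference, -0.073 ± 0.049 (SE; limma adjusted p = 0.942), had the lowest unadjusted p of the 9 genes, 0.151. Without HF replicate 2, the lowest HF liver, the Suclg2 difference was -0.097 (limma unadjusted p = 0.0444, adjusted p = 0.680), and with array weights it was -0.10 (limma unadjusted p = 0.0309, adjusted p = 0.490). These were the only settings in which any of the 9 genes had an unadjusted limma p under 0.05. Over 18 other settings, array weights among them, the Suclg2 difference ran from -0.15 on slide 1 alone to -0.00010 on slide 3 alone. With median centring and in the deposited table the lowest unadjusted limma p of the 9 genes was 0.418 and 0.274, both for Fh1.

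Fumarase, the product of Fh1, hydrates fumarate to malate in mitochondria and also acts in the cytosol. Fh1 ran from -0.29 through -0.11 to 0.057 in HF and from -0.14 through -0.099 to 0.063 in HF-Q, and HF livers were the more widely spread (SD 0.12 against 0.064). The difference was 0.033 ± 0.044 (SE; limma adjusted p = 0.989), and the second Fh1 probe, at chr1:177531530-177531589, gave 0.038 ± 0.045 and tracked the first at r = 0.89. Malate dehydrogenase of the mitochondrion, encoded by Mdh2, closes the cycle by restoring oxaloacetate. It ran from -0.064 through 0.076 to 0.20 in HF and from -0.0087 through 0.073 to 0.18 in HF-Q, with nearly equal medians, and the difference was 0.0058 ± 0.0378 (limma adjusted p = 0.999).

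**Figure D2:**
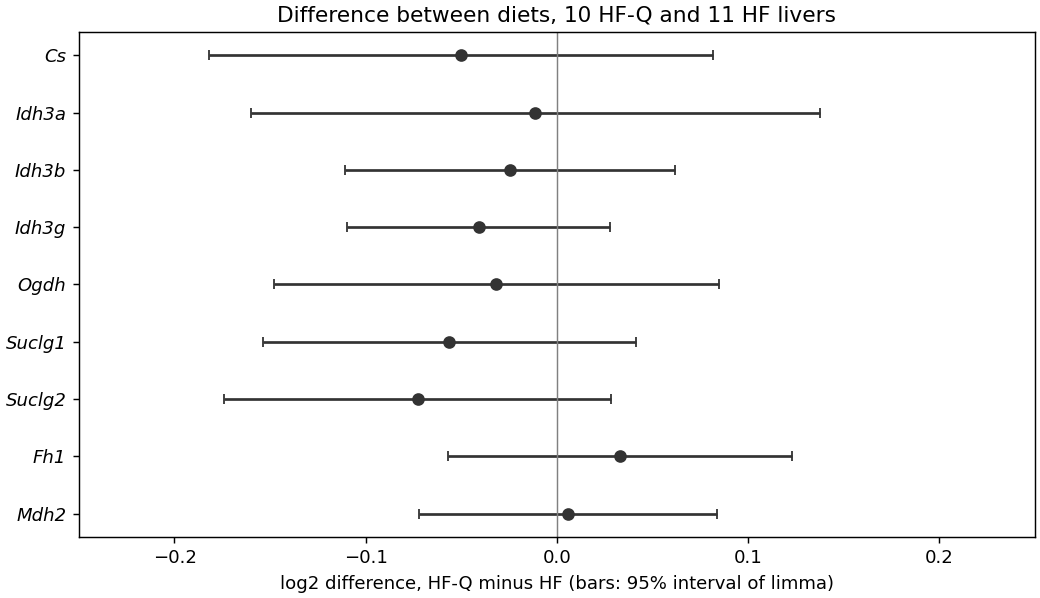
Log2 difference HF-Q minus HF (horizontal axis) for each of the 9 genes, as points with the 95% interval of limma as bars, from 10 HF-Q and 11 HF livers. Every interval includes 0, and the lowest bound is -0.18 for Cs.

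Of the 9 genes 7 were lower in HF-Q by their mean, with a median log2 difference of -0.032, whereas of all tested genes 53% were lower, with a median of -0.0043. This direction depended on the scaling. With arrays centred on their median in place of loess, 1 of the 9 was lower and the median was 0.027, while 34.3% of all genes were lower. In the deposited table of log2 values 5 of 9 were lower, with a median of -0.0028. There 47.7% of all genes were lower, with a median of 0.0036. With the processed intensity of the scanner files 8 of 9 were lower, beside 62.2% of all genes. The median of the 9 changed sign in 2 of 18 other settings.

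The mean of the 9 log2 ratios per liver was 0.031 ± 0.077 (SD, n = 11) in HF and 0.0039 ± 0.0374 (n = 10) in HF-Q. It ran from -0.069 to 0.15 in HF and from -0.052 to 0.054 in HF-Q, so the HF-Q livers all lay inside the HF range. HF replicate 7 was the highest liver, with 9 of the 9 genes above their own median over all livers, and HF replicate 5 followed with 8 of 9. At the low end HF replicates 2 and 4 each had 1 of 9 above. In HF replicate 7, 49.6% of all tested genes were above their own median, in HF replicate 5 48.5%, and in HF replicates 2 and 4 48.1% and 47.5%. HF replicate 5 is one of the 2 livers with high acinar markers, and the other, HF replicate 11, had a member mean of 0.0049. The median difference of the 9 genes was -0.032 without HF replicate 5 and -0.021 without HF replicate 11.

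**Figure D3:**
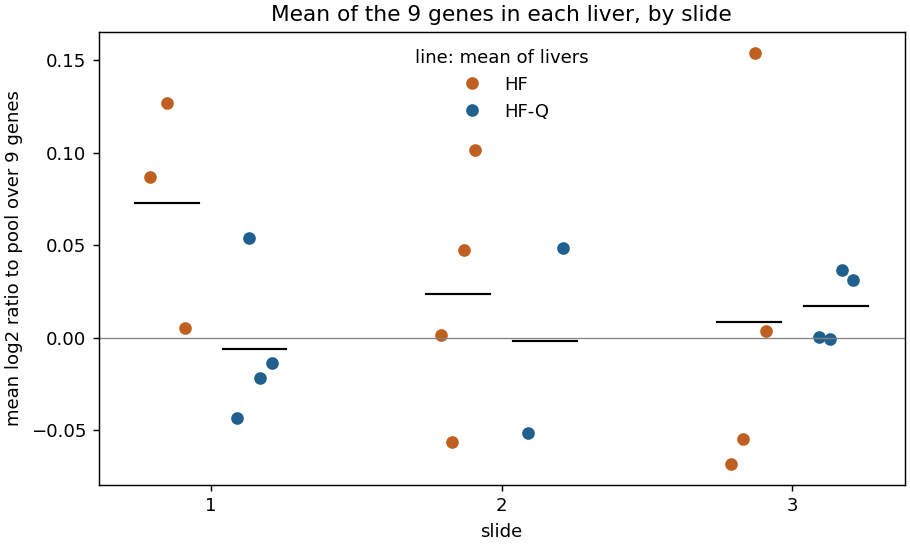
Mean log2 ratio to the pool over the 9 genes (vertical axis) for each liver, by slide (horizontal axis), with HF livers in orange, HF-Q livers in blue and black lines at the mean of the livers. The HF mean exceeds the HF-Q mean on slides 1 and 2 (0.073 against -0.0063, and 0.023 against -0.0017) and not on slide 3 (0.0085 against 0.017).

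Values by slide rest on 2 to 4 livers per slide and diet, and whether slides differed was not tested. The median difference of the 9 genes was -0.078 on slide 1, -0.030 on slide 2 and 0.0065 on slide 3, and -0.033 with the slide as a block. No gene of the 9 reached an unadjusted p under 0.05 in limma on any slide alone.

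Although the diets did not separate them, the genes varied together to some extent from liver to liver. Of the 36 pairs of members, 30 had a Pearson correlation above 0 over the 21 livers, with a median of 0.26 and a range of -0.14 to 0.78. A member against every other tested gene had a median of 0.0088, and r exceeded 0.5 in 13.9% of member pairs and in 3.36% of those other pairs. These are descriptions without a test, since all values of a liver share its RNA, its array and its normalization. Within groups the median was 0.26 and within slide and group 0.31. It was 0.13 without HF replicates 7 and 5, the livers of highest member mean.

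Over the 21 livers Idh3b and Suclg2 were the closest pair, at r = 0.78 (Spearman's rho 0.79), with r = 0.78 within groups and 0.75 without HF replicates 7 and 5. Within slide and group they had r = 0.76, and the closest pair was then Suclg1 with Suclg2, at 0.82. Suclg1 and Suclg2 were thus closest to each other only within slide and group. No Idh3 subunit was closest to another Idh3 subunit either way. Over all livers, Idh3a with Idh3b had r = 0.42, Idh3b with Idh3g 0.25 and Idh3a with Idh3g 0.12, while Suclg1 with Suclg2 had 0.49. Within slide and group the values of the 3 Idh3 pairs were 0.47, 0.043 and 0.36. Suclg1 was most like Mdh2 (0.58) over all livers, and within slide and group Mdh2 (0.57) came after Suclg2 and Idh3b (0.75). Idh3a and Fh1 were each most like the other both ways (0.51, and 0.64 within slide and group), as were Cs and Idh3g (0.50 and 0.73).

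The brightest Ogdh probe had its highest r with any member, 0.13, with Idh3g, and r = 0.0030 with the mean of the other 8. Its neighbour had r = 0.0053 with that mean, and the probe further along the transcript -0.28. Within slide and group the brightest probe ran from -0.42 with Suclg1 to 0.076 with Cs.

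**Figure D4:**
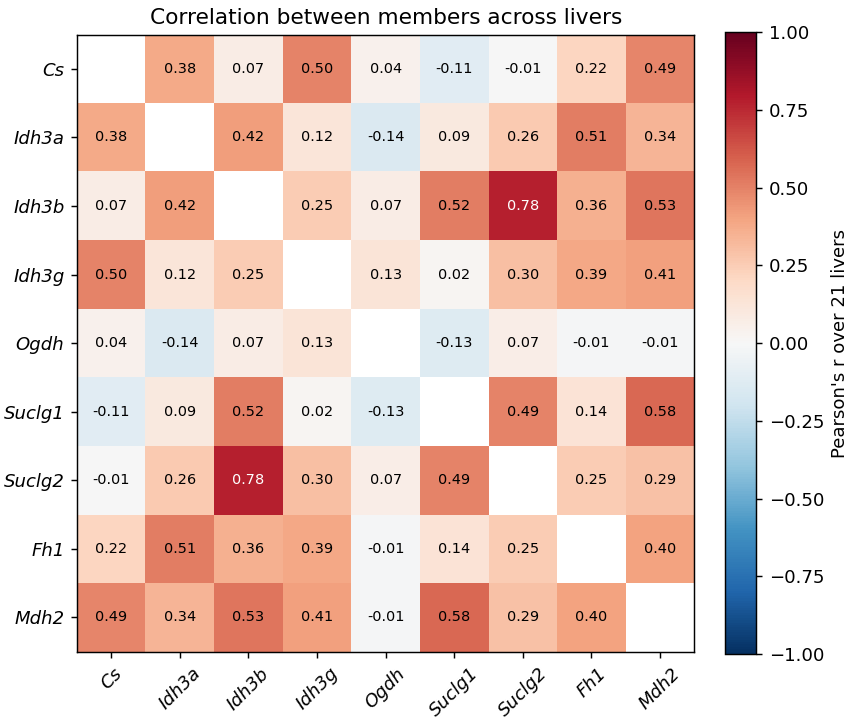
Pearson correlation of log2 ratios over the 21 livers for each pair of the 9 genes, with red for positive and blue for negative values. The strongest cell is Idh3b with Suclg2 at 0.78, and the row of Ogdh stays between -0.14 and 0.13.

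The promoters of Idh3b and Suclg2, the closest pair over all livers, are shown as the 250 bases before the start site in RefSeq (build GRCm38.p6, minus strand for both). Capitals mark matches, on either strand, to the CCAAT box (CCAAT, bound by NF-Y) and the GC box (GGGCGG, bound by SP1 and its relatives). The Idh3b stretch is chr2:130284452-130284701 and the Suclg2 stretch chr6:95718847-95719096.
Idh3b promoter: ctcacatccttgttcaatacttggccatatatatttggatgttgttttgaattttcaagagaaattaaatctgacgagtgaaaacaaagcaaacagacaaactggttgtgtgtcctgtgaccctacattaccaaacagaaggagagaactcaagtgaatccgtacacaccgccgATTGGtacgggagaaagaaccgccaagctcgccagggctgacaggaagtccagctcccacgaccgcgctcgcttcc
Suclg2 promoter: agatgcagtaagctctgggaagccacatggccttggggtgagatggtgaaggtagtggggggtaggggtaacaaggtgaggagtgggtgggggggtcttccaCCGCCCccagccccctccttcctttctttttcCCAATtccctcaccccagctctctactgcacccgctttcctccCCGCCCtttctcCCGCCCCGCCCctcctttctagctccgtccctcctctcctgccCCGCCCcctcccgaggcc
Both hold 1 CCAAT box in this stretch, and Suclg2 holds 5 GC boxes, a pair of them overlapping, where Idh3b holds 0. In windows that also include 50 bases after the start, 5 of the 8 members matched in the RefSeq table (all but Idh3a) held a CCAAT box, against 37.4% of 32851 promoters, and 5 of 8 held a GC box, against 35.7%. The ETS core CCGGAAG was in 2 of 8, against 8.86%, and AAGGTCA, a core site of estrogen-related receptors, in 1 of 8, against 4.72%. The centre of the NRF1 palindrome was in 0 of 8, against 6.23%, and the direct repeat of the PPAR type in 0 of 8, against 0.0396%. Ogdh, the gene with the AAGGTCA match, has 6 listed start sites and was counted if any held a motif, which raises its chance of a match. The GC content of the members' windows was 50.3% (Idh3b) to 67.7% (Suclg2), and 49.3% to 72.3% over the Ogdh start sites. The median of all promoters was 52.7%, and the part of GC content in the matches was not tested. A match is a run of letters and not a measured binding site.

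The genes whose pattern over the 21 livers was most like the mean of the 9 scaled members, among 13683 with a RefSeq symbol, were Nadk, Eno1b, Cptp, Adipor2 and Spg7. Nadk, the kinase that makes NADP from NAD, had r = 0.82 (rho 0.82), and 0.83 within groups. Eno1b, an enolase gene whose transcript is hard to tell from that of Eno1, had r = 0.82 (rho 0.78). Cptp, a lipid transfer protein, Adipor2, an adiponectin receptor, and Spg7, a protease of the inner mitochondrial membrane, had r = 0.79, 0.79 and 0.78. Without HF replicates 7 and 5, Nadk kept 0.83 and the other genes had 0.66 to 0.74. None of these genes passed the test between diets, with log2 differences of -0.085 ± 0.049 (SE; Adipor2, limma adjusted p = 0.885) to -0.0083 ± 0.0496 (Nadk, limma adjusted p = 0.999).

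Other subunits and isoenzymes of the cycle were read through 9 genes, all measured. Of these 0 passed the test in either direction in limma over all genes, 0 had an unadjusted p under 0.05 (background 5.93%), and the median log2 difference was -0.033. Sdhc and Sdhb, subunits of succinate dehydrogenase, had differences of -0.069 ± 0.037 (SE) and -0.053 ± 0.052. Sucla2, the beta subunit of the ATP-dependent succinyl-CoA ligase, had -0.060 ± 0.033, close to the value of Suclg2. Dld, the dihydrolipoamide dehydrogenase shared with other complexes, had 0.027 ± 0.030, with limma adjusted p values of 0.873 to 0.976 for these 4 genes.

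Pyruvate entry into the cycle was read through 13 measured genes of 14 listed, 0 of which passed the test in either direction, with a median of -0.043. At an unadjusted p under 0.05 in either direction stood 2 of 13 (background 5.93% of all tested genes), both lower in HF-Q (background 2.91%). These were Pcx, pyruvate carboxylase, which makes oxaloacetate (-0.11 ± 0.05, SE; limma adjusted p = 0.822), and Pdha1, the catalytic alpha subunit of pyruvate dehydrogenase (-0.10 ± 0.05; limma adjusted p = 0.832). Their unadjusted limma p values depended on the setting. With median centring they were 0.695 and 0.638, but there only 239 of 19718 tested genes stood under 0.05, against 1169 in the main fit. In the deposited table they were 0.270 and 0.235. Of 18 other settings 9 and 10 left them under 0.05. Those counts include Aquantile scaling and the changed threshold for adjusted p, which both leave the unadjusted p as it was. Mpc1, a subunit of the mitochondrial pyruvate carrier, had -0.13 ± 0.07, and Pdk1, a kinase that inactivates pyruvate dehydrogenase, -0.096 ± 0.061.

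Cytosolic partners and mitochondrial carriers, 19 measured of 21, had a median of -0.035, again with 0 genes past the test in either direction. Here 3 of 19 had an unadjusted p under 0.05 in either direction (background 5.93%), all lower in HF-Q (background 2.91%). Got2, the mitochondrial aspartate aminotransferase of the malate-aspartate shuttle, had the lowest p (-0.10 ± 0.04, SE; limma adjusted p = 0.771). Mdh1, the cytosolic malate dehydrogenase of that shuttle, had -0.095 ± 0.043 (limma adjusted p = 0.822), beside 0.0058 for mitochondrial Mdh2. Me2, a mitochondrial malic enzyme, had -0.089 ± 0.042 (limma adjusted p = 0.831), and Slc25a11, the oxoglutarate-malate carrier, -0.076 ± 0.037. Me2 was dim, with a mean log2 intensity over both dyes of 7.36 against 14.4 for Got2. Its difference was -0.18 in the processed intensity of the scanner files. With median centring, where 239 of 19718 tested genes stood under 0.05, the unadjusted limma p of Got2, Mdh1 and Me2 was 0.709, 0.855 and 0.193. In the deposited table it was 0.118, 0.234 and 0.0772. Of the 18 other settings, 14, 11 and 11 left it under 0.05, again with Aquantile scaling and the changed threshold counted.

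Assembly factors and regulators of mitochondrial genes, 20 of 20 measured, had a median of -0.033, and 0 passed the test in either direction or had an unadjusted p under 0.05 (background 5.93%). Esrra and Esrrg, estrogen-related receptors that drive genes of oxidative metabolism, had -0.10 ± 0.07 (SE; limma adjusted p = 0.942) and -0.14 ± 0.09 (limma adjusted p = 0.925). Esrrg had an unadjusted limma p of 0.128, and one under 0.05 in 6 of 18 other settings. Among these 6 were the slide as a block (-0.15, limma p = 0.0375) and the deposited table (-0.26, limma p = 0.0343). Aquantile scaling and the changed threshold, counted in the 18, left the p of 0.128 as it was. Sirt3, a mitochondrial deacetylase, had -0.064 ± 0.055, and Lipt2, which works in lipoylation of the oxoglutarate and pyruvate dehydrogenase complexes, 0.12 ± 0.07. Esrrg and Lipt2 were dim, with mean log2 intensities over both dyes of 7.68 and 7.35. Their differences were -0.27 and 0.25 in the processed intensity. With median centring of the arrays the list medians were 0.032 for other cycle subunits, -0.021 for pyruvate entry, 0.027 for partners and carriers and 0.0015 for regulators. The median of all tested genes was then 0.024, against -0.0043 in the main fit. The sign of 3 of these 4 list medians thus changed where that of all tested genes changed too.

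**Figure D5:**
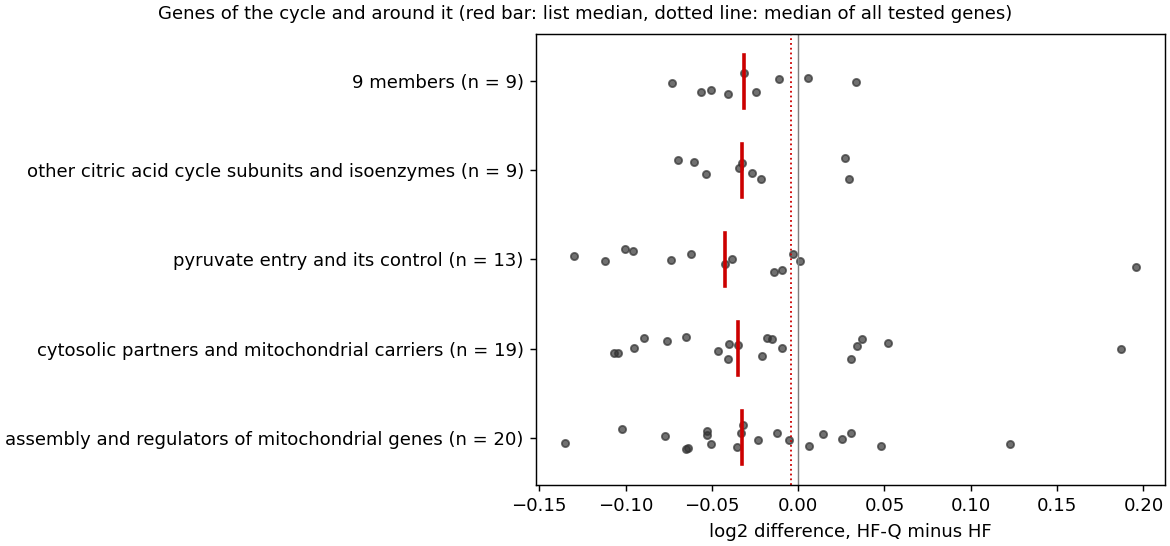
Log2 difference HF-Q minus HF (horizontal axis) for each gene of the 9 members and of the 4 lists around them, with red bars at the list medians and a dotted line at the median of all tested genes. List medians lie between -0.043 and -0.032 beside -0.0043 for all tested genes, and 0 of these genes passed the test in limma.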

How the data were processed

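For each array the authors deposited a scanner text file, made with Agilent Feature Extraction 10.7.3.1 per the submitters' processing notes. Its mean spot and local background intensity are not normalized, per the file headers, and the same files hold processed intensity, background-subtracted and dye-normalized, and flags of spots. The authors excluded 3 of 24 arrays for uneven hybridisation, per the labels. They also deposited a table of log2 values, whose columns all have a median of 7.92 and correlate with log2 Cy5 at 0.973 to 0.989 and with Cy3 at 0.970 to 0.982. How these medians were set is not stated in those sources, so this table served as an alternative.

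Background was corrected with normexp (offset 50) and ratios were normalized by loess within arrays in limma 3.58.1 (R 4.3.3), with control, uneven and outlying spots at weight 0. Probes well above background in Cy5 on at least 10 of 21 arrays were kept (26291), and the brightest stood for a gene. Names follow the array files, updated through RefSeq accessions (GRCm38.p6). An offset draws ratios of dim genes toward 0. No dyes were swapped, so a gene's dye bias is in every ratio and leaves the difference between diets.

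The diets were compared gene by gene with lmFit and eBayes of limma, two-sided and with no block, adjusted over 19718 genes. The 9 genes and the lists were chosen with earlier results of these data known, so lists are described by counts and medians without a test. Named were all 9 genes, the 4 genes of lowest p in each list, and the 5 genes most like the members. Alternatives changed background correction, normalization, filter, probe, variance model, weights, slide, threshold and arrays used. The labels give no pairing of samples by replicate number, so the main fit used none. Same-numbered livers had deviations correlated at -0.34 to 0.16, which cannot exclude a pairing.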

Additional observations from a re-analysis of the deposited data

Results flagged for a closer look

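Among the HF-Q livers, 1 liver stood far from the other 9 for 3 of the 31 values examined (30 named genes and the mean of the 9 members), by the gap to its nearest neighbour over the range of the group. A rate of about 1 in 20 by chance was assumed and not measured in these data, and the values examined share livers and arrays. HF livers, 11 in number, were not examined this way. For Sdhc, HF-Q replicate 10 was highest at a log2 ratio of 0.042, with the next at -0.079 and the lowest at -0.20. For Mdh1, HF-Q replicate 7 was lowest at -0.086, with the next at 0.085 and the highest at 0.27. For Lipt2, HF-Q replicate 9 was lowest at -0.29, with the next at -0.085 and the highest at 0.12. None of the 9 members themselves was among them.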

How the results depend on the processing

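None of the 9 members was called in any of 40 alternatives, and differences this small turned sign easily; the causes were not tested. The count of genes called over all genes was 0, 1 with array weights and on slide 2 alone, and 0 to 4 with 1 array left out (4 without HF replicate 2, 1 without HF-Q replicate 10). With 1 array left out Idh3a ran from -0.050 to 0.021 and Mdh2 from -0.0072 to 0.019, and the other 7 members kept their sign. Nadk then ran from -0.030 to 0.011 and Cptp from -0.030 to 0.0047. Median centring gave 0.011 for Cs, 0.031 for Idh3a, 0.033 for Idh3b, 0.018 for Idh3g, 0.027 for Ogdh, 0.0054 for Suclg1, 0.0032 for Sucla2, 0.022 for Sdhb, 0.045 for Nadk, 0.022 for Eno1b and 0.026 for Cptp, and list medians of 0.032 for other cycle subunits and 0.0015 for regulators. The median of all tested genes was 0.024 in that setting. Mdh2 was -0.0060 in the processed signals, -0.0045 with array weights and -0.0044 with replicate numbers 1 to 10 as a block, a replicate block that called 0 genes. Deposited values gave 0.0037 for Idh3a and 0.0022 for Ogdh. Slide 1 alone gave 0.066 for Idh3a, -0.048 for Fh1, -0.058 for Mdh2, -0.010 for Dld and -0.033 for Lipt2. Slide 2 gave 0.057 for Cs, 0.043 for Ogdh, -0.0028 for Fh1, 0.053 for Pcx, 0.017 for Got2, 0.012 for Eno1b, 0.032 for Adipor2 and a regulator median of -0.083. Slide 3 gave 0.011 for Idh3a, 0.0065 for Idh3b, 0.050 for Ogdh, 0.0093 for Sirt3, 0.049 for Nadk, 0.021 for Cptp and a median of 0.021 for other cycle subunits. With all 21 arrays, the bounds of the members' 95% intervals were widest with median centring, -0.28 to 0.36. Aquantile scaling left log2 ratios as they were, and so tested nothing.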
